A study of Mus musculus with 7 samples.

Results

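Serpine2 and 6 other serpins, Serpina3n, Serpinh1, Serpinf1, Serpinb6a, Serpinb8 and Serpinb9, were followed through 7 RNA sequencing libraries of mouse kidney endothelial cells. They were taken by symbol, as 7 of the 63 serpin symbols among 26558 genes, and all 7 had a mean FPKM (fragments counted per kilobase of transcript, relative to all fragments of a library) of at least 1 over the libraries. The cells came from kidneys of 3-month-old male C57BL/6 mice, were captured through Cd31 on antibody-coated magnetic beads, and gave RNA without being cultured. The 4 mutant libraries were from Hoxb7-Cre-GFP mice with loxP sites on both copies of Vhlh, the von Hippel-Lindau gene. The 3 wildtype libraries were from Hoxb7-Cre-GFP mice, so that both groups carried the Cre and GFP transgene. The deletion was directed at kidney tubule cells, not at the endothelial cells that were sequenced. Whether the libraries came from separate animals is not stated in the labels, so errors describe the spread between libraries, which may be technical.

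Serpins share 1 fold. The inhibitory ones offer an exposed loop to a serine or cysteine protease and trap it when it cuts, so that each inhibitor molecule is used up with its target. Some have lost inhibition and serve other ends. Clade B serpins lack a classical secretion signal and guard the inside of the cell, while clades A, E, F and H enter the secretory pathway. Serpine2, or protease nexin-1, is held at the cell surface by heparan sulfate and inhibits urokinase, tissue plasminogen activator, plasmin and thrombin, so its name as a serpin outside coagulation is a matter of degree. The 7 serpins were chosen by symbol with their differences in FPKM between these mutant and wildtype libraries known. Their values are therefore given as a description, with no test.

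For 4 of the 7 serpins all mutant libraries lay above all wildtype libraries, for 2 they lay below, and for 1 the groups overlapped. Groups did not overlap for 31.4% of all 13420 genes tested, 18.9% with mutants higher and 12.5% with mutants lower. The 4 were Serpine2, Serpina3n, Serpinb6a and Serpinb9, and the 2 were Serpinf1 and Serpinb8. The median difference between mutant and wildtype on the log2(FPKM + 1) scale was 0.57 over the 7, against 0.04 over all tested genes. Because the contrast chose them, nothing is read from these counts.

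**Figure D1:**
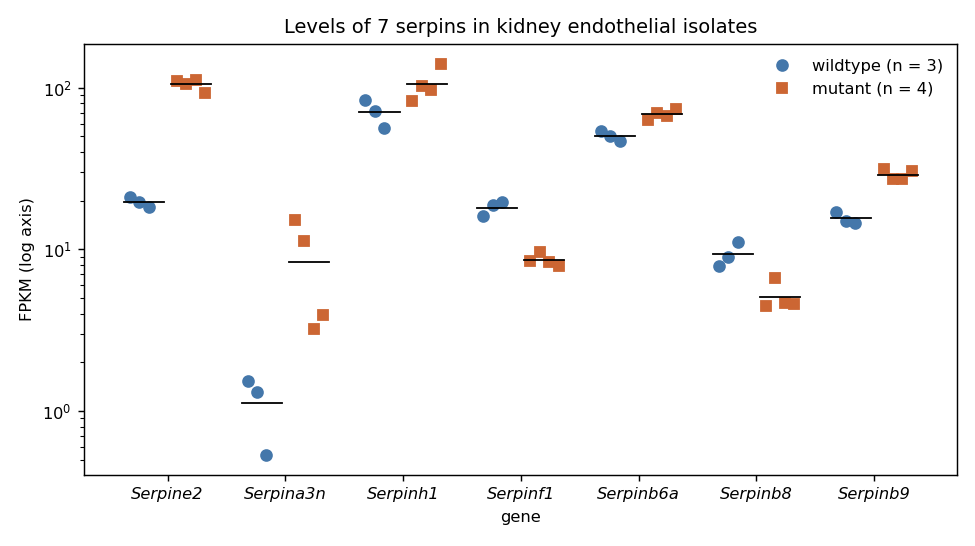
FPKM of each serpin in each library, on a log axis, with wildtype libraries as circles (n = 3), mutant libraries as squares (n = 4) and group means as black lines. Serpine2 lay between 18.2 and 21.1 in wildtype and between 92.1 and 112 in mutant libraries, and Serpinh1 is the gene whose groups overlapped.

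Serpine2 had the largest difference of the 7 on the log2(FPKM + 1) scale. Serpina3n, at a far lower level, had the larger ratio of means, 7.45-fold, and the larger log2 difference with a pseudocount of 0.1, at 2.61 against 2.41 for Serpine2. The FPKM of Serpine2 was 21.1, 19.6 and 18.2 in wildtype 1 to 3 and 111, 106, 112 and 92.1 in mutant 1 to 4. Both groups were tight, with coefficients of variation of 7.22% and 8.70%, and no mutant library came near the wildtype range. The means were 19.6 ± 1.42 (SD, n = 3) and 105 ± 9.16 (SD, n = 4), a 5.36-fold ratio of means and a log2 difference of 2.36 (standard error 0.0942). That difference ranked at 23 from the top among 13420 genes. The level of Serpine2 stood above 74.2% of tested genes in wildtype and above 96.0% in mutant libraries.

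Endothelial markers, the check of the captured cell type, were all above 0 and differed less than Serpine2. Of all tested genes 8.76% rose and 7.34% fell (limma, Benjamini-Hochberg adjusted p under 0.05). Of 15 endothelial markers 5 rose and 0 fell at that threshold, with 0 lower also at an unadjusted p under 0.05. Their median log2 difference was 0.38, and their summed FPKM was 2486 to 3730 in wildtype and 3819 to 4490 in mutant libraries. Per unit of Pecam1, the gene of the captured Cd31 protein, Serpine2 was at 0.0738 to 0.0901 in wildtype and 0.240 to 0.362 in mutant libraries, again without overlap. This ratio was chosen after the values were seen. Markers of the thick limb, distal tubule and collecting duct also moved. Of 14 in this list 4 rose and 0 fell at the adjusted threshold. At an unadjusted limma p under 0.05, 2 were lower, the collecting duct markers Aqp2 and Aqp3. Their mean FPKM went from 79.5 to 35.5 and from 34.97 to 22.4, with overlapping groups. The list summed to 1559 to 1791 in wildtype and 1886 to 2875 in mutant libraries. Most of that sum was Umod, a thick limb gene, at 1055 to 1279 and 1371 to 2179. The sum therefore says little of the collecting duct. The part of these tubule and duct cells in the level of Serpine2 was not tested. Proximal tubule marker sums overlapped, at 3170 to 5360 and 1213 to 7948, and so did those of pericytes, smooth muscle and fibroblasts, at 161 to 232 and 168 to 204. In the proximal tubule sum Kap alone ranged from 231 to 6791 in mutant libraries. Aqp1 of that list was higher in every mutant library, at 215 to 359 and 429 to 670, while its other markers overlapped. Of these 12 markers 0 rose and 0 fell. In bulk libraries such as these, fewer cells of a type cannot be told apart from less RNA per cell.

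The genes most like Serpine2 were sought among all tested genes, by the root mean square difference between log2 profiles over the 7 libraries, each centred on its own wildtype mean. Cyp1a1, a monooxygenase induced through the aryl hydrocarbon receptor, came first, with a root mean square difference of 0.198 on the log2 scale. Its FPKM was 0.764, 0.440 and 0.215 in wildtype and 7.77, 4.59, 6.86 and 5.35 in mutant libraries. Krt19, a keratin of simple epithelia, was next at 0.272, with 0.976 to 1.81 FPKM in wildtype and 9.10 to 14.9 in mutant libraries. The unnamed model 4930583H14Rik (0.379), Sprr2f, a small proline-rich protein of epithelia (0.438), and Akr1b8, an aldo-keto reductase (0.459), followed. Sprr2f was listed at 0 in wildtype 1 and wildtype 2. All 5 were much lower in level than Serpine2, at means of 3.75 to 11.1 FPKM in mutant libraries. With a pseudocount of 1, likeness on this scale is not likeness in ratio at such levels. The ratios of means were 13.0 for Cyp1a1, 7.40 for Krt19, 45.85 for 4930583H14Rik, 90.48 for Sprr2f and 5.58 for Akr1b8, against 5.36 for Serpine2. The 5 genes were picked for likeness, so no test is given.

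In a list of proteases that Serpine2 inhibits or that lie just up- or downstream of these, the plasminogen activators had the highest transcript levels. The proteins were not measured. Of the 9 genes in that list 5 were tested, and 1 rose and 1 fell, where 8.76% of all tested genes rose and 7.34% fell. Plat, tissue plasminogen activator, was at an FPKM of 74.3, 56.5 and 48.5 in wildtype and 161, 102, 101 and 96.4 in mutant libraries. It rose by 0.92 on the log2 scale (standard error 0.211, limma adjusted p = 0.0251), with every mutant above every wildtype library, a call that ended without wildtype 2 (adjusted p = 0.10003) or wildtype 3 (adjusted p = 0.0877). Plau, urokinase, was at 189, 188 and 182 in wildtype and 139, 148, 165 and 155 in mutant libraries. It fell by 0.30 (standard error 0.0834, limma adjusted p = 0.0497), a call at the edge of the threshold lost in 11 of the 14 alternatives tried (largest adjusted p = 0.172), 6 of which left out 1 library. Hpn, the membrane protease hepsin, was at 28.8 ± 5.38 (SD, n = 3) and 33.7 ± 3.94 (SD, n = 4) and stayed uncalled (limma adjusted p = 0.301). Thrombin, plasminogen and factor XI transcripts were near 0, with mean FPKM of at most 0.0184 for F2, Plg and F11 in either group, and none was tested. Serpine2 FPKM per unit of Plat FPKM was 0.284 to 0.376 in wildtype and 0.689 to 1.11 in mutant libraries. Per unit of Plau it was 0.1003 to 0.1117 and 0.593 to 0.798.

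A list of 20 surface genes held receptors and cofactors of Serpine2 and Serpinf1, and also receptors for thrombin and protein C. Of these 19 were tested, 3 rose and 2 fell, where 16.1% of all tested genes were called either way. The median log2 difference of the 19 was 0.30. Procr, the endothelial protein C receptor, rose from 15.9 ± 2.41 (SD, n = 3) to 34.0 ± 3.996 (SD, n = 4; limma adjusted p = 0.00232). Thbd, thrombomodulin, which turns thrombin toward protein C, rose from 101 ± 13.8 to 174 ± 27.1 (limma adjusted p = 0.0145). F2rl3, a thrombin receptor, rose from 2.43 ± 0.595 to 5.11 ± 1.25 (limma adjusted p = 0.0248). The calls of Thbd and F2rl3 were both lost without wildtype 2 or wildtype 3, which left 1 gene of the list higher, and F2rl3 was also lost without mutant 1 or mutant 4 and with no filter on low genes (largest adjusted p 0.0606 and 0.0848). Sdc3, a heparan sulfate proteoglycan, fell from 61.8 ± 5.27 to 38.7 ± 3.19 (limma adjusted p = 0.00411). Sdc4, another syndecan, was at 102 ± 6.53 and 105 ± 8.64, which the fit did not call (limma adjusted p = 0.841). Rpsa, the laminin receptor that also binds the Serpinf1 protein, was at 303 ± 21.2 and 256 ± 16.6 and did not pass the test (limma adjusted p = 0.109). Lrp1, the endocytic receptor that clears serpin and protease complexes, was named after its values were seen. It was at 7.77, 9.38 and 10.4 in wildtype and 5.35, 12.1, 3.82 and 3.83 in mutant libraries, so that mutant 2 was the highest of all 7 while the other mutants lay below wildtype.

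**Figure D2:**
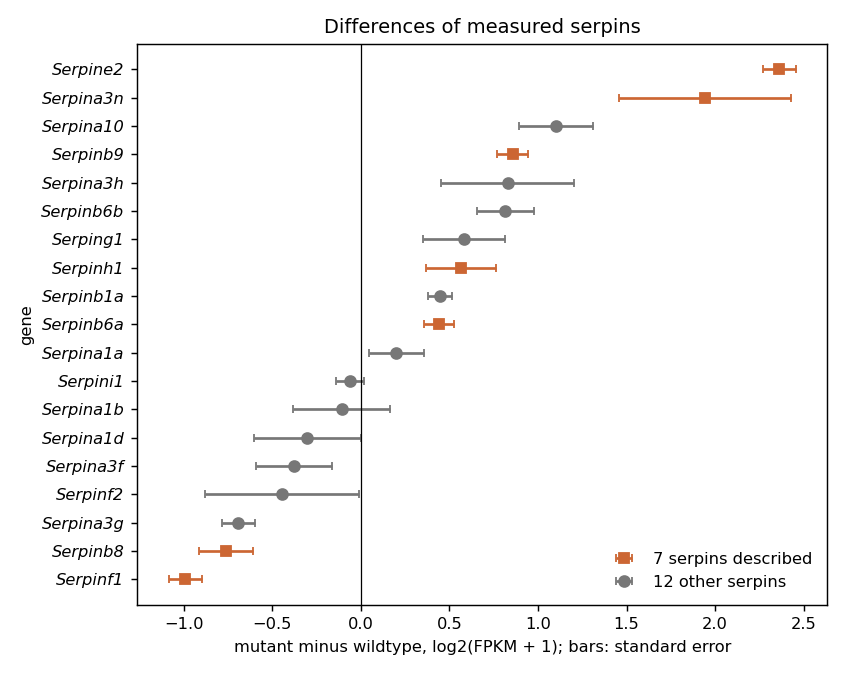
Difference between mutant and wildtype libraries on the log2(FPKM + 1) scale for 19 of the 20 serpins with a mean FPKM of at least 1, with bars for the standard error. The 7 described serpins are orange squares, from Serpinf1 at -0.99 to Serpine2 at 2.36, and 12 others grey circles.

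Serpina3n, a secreted inhibitor of granzyme B and of leukocyte proteases in the mouse and an acute-phase gene, had the widest spread relative to its mean. Its FPKM was 1.53, 1.32 and 0.533 in wildtype and 15.2, 11.2, 3.20 and 3.90 in mutant libraries. The groups did not overlap, but mutant 1 and mutant 2 stood well above mutant 3 and mutant 4. The means were 1.13 ± 0.525 (SD, n = 3) and 8.39 ± 5.83 (SD, n = 4), a 7.45-fold ratio of means. The log2 difference was 1.94 (standard error 0.485) with a pseudocount of 1, 2.61 with one of 0.1, and 1.60 without mutant 1.

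Serpina3n lies on chromosome 12 from 104406729 to 104414329 (mm10, GENCODE M21), within a cluster of clade A genes whose members are close copies. Of 1965 stretches of 100 bases in its annotated transcripts 0.204% also occur in transcripts of another gene, against 42.8% for Serpina1a and 0.0% for the other 6 described serpins. None of the other clade A3 genes tested rose. Serpina3g, an intracellular clade A serpin, was at 7.04, 6.94 and 6.33 in wildtype and 3.25, 4.03, 3.74 and 4.28 in mutant libraries, and fell by 0.69 (standard error 0.0933, limma adjusted p = 0.0035). Serpina3f was at 2.50 ± 0.965 (SD, n = 3) and 1.67 ± 0.553 (SD, n = 4), and Serpina3h at 2.94 ± 1.98 and 5.70 ± 2.41, and neither was called (limma adjusted p = 0.270 and 0.170). Between 3.4% and 3.6% of the stretches of these 3 genes are shared with another gene.

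Serpinh1, also called Hsp47, inhibits no protease and escorts procollagen through the endoplasmic reticulum. It was the most abundant serpin in wildtype, at an FPKM of 83.4, 71.7 and 56.3, and reached 83.1, 102, 96.4 and 141 in mutant libraries. Mutant 1 fell just below wildtype 1, so the groups overlapped. The means were 70.5 ± 13.6 (SD, n = 3) and 106 ± 24.9 (SD, n = 4), with a log2 difference of 0.57 (standard error 0.197). Per unit of Pecam1, Serpinh1 was at 0.278 to 0.292 in wildtype and 0.222 to 0.367 in mutant libraries, so the groups overlapped on that scale as well.

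Several collagens and enzymes that act beside Serpinh1 rose. Of 27 tested genes 10 rose and 0 fell (12 and 0 at an unadjusted limma p under 0.05), beside 8.76% higher over all tested genes, and the median log2 difference was 0.44. Fkbp10, a collagen chaperone of the endoplasmic reticulum, was at 7.97, 7.16 and 5.97 in wildtype and 15.8, 18.0, 15.3 and 15.2 in mutant libraries, a rise of 1.09 (standard error 0.105, limma adjusted p = 0.00116). Plod2, which hydroxylates collagen lysines, rose by 0.75 (adjusted p = 0.00205) and the related chaperone Fkbp14 by 0.63 (adjusted p = 0.00604) in the same limma fit. The basement membrane chain Col4a1 rose from 138 ± 27.2 (SD, n = 3) to 255 ± 26.0 (SD, n = 4), and Col4a2, Col18a1 and Col5a2 rose by 1.08, 0.80 and 0.79. P4hb, a subunit of the prolyl hydroxylase, had a call at the threshold (limma adjusted p = 0.0497) that was lost in 13 of the 14 alternatives, those without 1 library included (largest adjusted p of the 13 = 0.197). The general chaperone Hspa5 was at 295 ± 44.2 and 298 ± 90.3 and stayed uncalled (limma adjusted p = 0.967). Serpinh1 per unit of Col4a1 was 0.505 to 0.520 in wildtype and 0.333 to 0.516 in mutant libraries.

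Serpinh1 is itself a heat shock gene, and of 12 genes of the heat shock list 1 rose and 1 fell, where 16.1% of all tested genes were called. Bag3, a co-chaperone, was at 21.6 ± 0.462 (SD, n = 3) and 31.7 ± 4.72 (SD, n = 4; limma adjusted p = 0.0284), and it was called neither with median-of-ratios scaling nor in the fits without 1 library other than that without mutant 3 (largest adjusted p = 0.1003). Hspa1b, an inducible Hsp70, went from 672 ± 17.9 to 402 ± 130 (limma adjusted p = 0.045), and it was called neither with no filter nor in the fits without 1 library other than that without mutant 4 (largest adjusted p = 0.143). Its close copy Hspa1a was at 677 ± 31.7 and 425 ± 129, which the fit did not call (limma adjusted p = 0.0519). It was called lower in 6 of the 14 alternatives, and the reads of the pair may be shared. Hspa8, the constitutive Hsp70, was at 952 ± 91.9 and 1145 ± 287 and did not pass the test (limma adjusted p = 0.455).

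**Figure D3:**
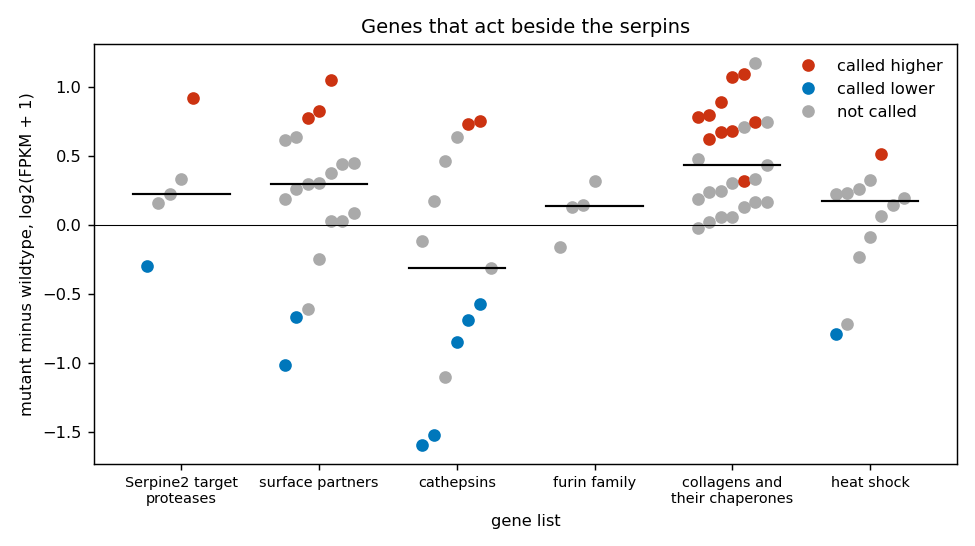
Difference between mutant and wildtype libraries on the log2(FPKM + 1) scale for each tested gene of 6 lists, coloured by its call (limma, Benjamini-Hochberg adjusted p under 0.05), with black lines at list medians. The collagen list has 10 genes called higher and 0 lower, and the cathepsin list 2 higher and 5 lower.

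Serpinf1, pigment epithelium-derived factor, is a secreted serpin without protease inhibition that restrains blood vessel growth. It was at an FPKM of 16.1, 18.7 and 19.6 in wildtype and 8.52, 9.61, 8.34 and 7.94 in mutant libraries. Every mutant library lay below every wildtype library, and both groups were narrow. The means were 18.1 ± 1.82 (SD, n = 3) and 8.60 ± 0.715 (SD, n = 4), a ratio of 0.475 and a log2 difference of -0.99 (standard error 0.094). Its neighbour on chromosome 11, the plasmin inhibitor Serpinf2, was at 11.3, 9.95 and 17.9 in wildtype and 11.6, 5.39, 5.07 and 19.6 in mutant libraries and stayed uncalled (limma adjusted p = 0.523). Serpine2 and Serpinf1 were close in wildtype, at 19.6 and 18.1 with overlapping libraries, and far apart in mutant libraries, at 105 and 8.60.

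Serpinb8, an intracellular serpin whose human form inhibits furin, was the other serpin at a lower level in mutant libraries. It was at 7.85, 8.92 and 11.2 in wildtype and 4.46, 6.63, 4.66 and 4.60 in mutant libraries. The groups did not overlap, and mutant 2 stood apart from the other mutants. The means were 9.32 ± 1.70 (SD, n = 3) and 5.09 ± 1.03 (SD, n = 4), a log2 difference of -0.76 (standard error 0.153). Furin itself was at 26.5 ± 2.42 and 29.5 ± 2.54, which the fit did not call (limma adjusted p = 0.323), and neither were Pcsk5 (adjusted p = 0.208) and Pcsk7 (adjusted p = 0.249). Of the 8 proprotein convertases 4 were tested by limma, and 0 were called at an adjusted p under 0.05 and 0 at an unadjusted p under 0.05.

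Macrophage and dendritic cell transcripts were lower in mutant libraries, as were Serpinf1, Serpinb8 and Serpina3g. All 17 tested markers of these cells fell, where 7.34% of all tested genes fell. The markers had a median log2 difference of -2.02, and none was at 0. Their summed FPKM was 13120, 17330 and 17670 in wildtype 1 to 3 and 2882, 4284, 2906 and 3596 in mutant 1 to 4. Serpinb8 and Serpinf1 increased in the same order from wildtype 1 to wildtype 3, and like the sum were highest among mutants in mutant 2. The other mutants did not share an order. Mutant 4 had the next highest sum but the lowest Serpinf1 (7.94), and less Serpinb8 (4.60) than mutant 3 (4.66). The sum was mostly Cd74, H2-Aa and H2-Ab1, and single markers differed in their order among mutants. In mutant 4 Emr1 (21.9) and C1qa (131) were next highest, like the sum, while Csf1r (38.5) and Mrc1 (8.75) were lowest, like Serpinf1. Serpina3g followed another order than the sum, highest among mutants in mutant 4 and among wildtype libraries in wildtype 1, where the marker sum was lowest. Cd74, the largest part of that sum, was at 5339, 7160 and 6940 in wildtype and 1067, 1353, 1117 and 1413 in mutant libraries. Among mutants Serpina3g had the same order as Cd74, and among wildtype libraries it did not. The part of these cells in the 3 serpin levels was not tested. Markers of T and natural killer cells summed to 28.3 to 35.6 in wildtype and 25.2 to 45.0 in mutant libraries, and those of neutrophils and mast cells to 43.6 to 106 and 26.0 to 133, overlapping in both cases.

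Serpinb9 and Serpinb6a, intracellular inhibitors of granzyme B and of cathepsin G, were both higher in mutant libraries. Serpinb9 was at 17.04, 15.0 and 14.6 in wildtype and 31.2, 27.1, 27.1 and 30.6 in mutant libraries, a gap wider than the range of either group. Its means were 15.6 ± 1.29 (SD, n = 3) and 29.0 ± 2.21 (SD, n = 4), a log2 difference of 0.86 (standard error 0.0883). Serpinb6a was at 53.7, 50.3 and 46.7 in wildtype and 63.5, 70.0, 67.2 and 73.6 in mutant libraries, with a log2 difference of 0.44 (standard error 0.0833). Its groups did not overlap, but its difference was close to the median of 0.38 of the endothelial markers. Per unit of Pecam1, Serpinb6a overlapped between wildtype (0.188 to 0.231) and mutant libraries (0.169 to 0.217), whereas Serpinb9 did not (0.0597 to 0.0724 against 0.0786 to 0.0873).

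Both genes belong to the clade B cluster on chromosome 13. Of 16 serpin genes annotated on that chromosome 4 were tested, between 32842092 and 34002794 (mm10, GENCODE M21), and the described pair was chosen with its difference known. The others were Serpinb1a, an inhibitor of neutrophil elastase in the cytosol, and Serpinb6b, a relative of Serpinb6a, and for both the mutant libraries were above wildtype without overlap, as for 18.9% of all tested genes. Serpinb1a was at 6.17, 6.54 and 6.28 in wildtype and 8.64, 8.56, 9.49 and 9.24 in mutant libraries, and rose by 0.44 (standard error 0.068, limma adjusted p = 0.00549). Serpinb6b was at 11.9, 10.6 and 10.5 in wildtype and 17.4, 20.5, 16.7 and 27.3 in mutant libraries, and rose by 0.81 (standard error 0.162, limma adjusted p = 0.0153), a call lost without wildtype 2 or wildtype 3 (largest adjusted p = 0.0694). No stretch of 100 bases is shared between these 4 genes and another gene. Serpinb8, by contrast, lies on chromosome 1 from 107590006 to 107610484.

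Transcripts of the proteases that these serpins guard against were scarce in the isolates, and the proteins were not measured. A list of 13 genes held granzymes, neutrophil and mast cell proteases and perforin, not all of them serpin targets. Of these only Gzmb, granzyme B, reached a mean FPKM of 1. It was at 1.45, 2.27 and 2.13 in wildtype and 0.641, 0.881, 0.890 and 1.56 in mutant libraries, and was not called (log2 difference -0.57, limma adjusted p = 0.0639) except without mutant 4 (adjusted p = 0.0278). Ctsg, cathepsin G, had means of 0.0329 and 0.0264, and Elane, neutrophil elastase, was listed at 0 in all 7 libraries.

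Transcripts of lysosomal cathepsins, by contrast, were abundant and moved in both directions. Of 13 tested 2 rose and 5 fell, where 8.76% of all tested genes rose and 7.34% fell. Ctsl, a cysteine protease, rose from 92.5 ± 6.48 (SD, n = 3) to 156 ± 25.3 (SD, n = 4; limma adjusted p = 0.0107, lost without wildtype 2), and Ctsd, an aspartic protease, from 205 ± 1.03 to 349 ± 50.0 (limma adjusted p = 0.00552). Ctss, the cathepsin that processes the MHC class II invariant chain, fell from 538 ± 131 to 185 ± 79.0 (limma adjusted p = 0.0114). Ctsh, Ctsz and Ctse fell by 0.84, 0.69 and 1.52 on the log2 scale, Ctsz and Ctse with calls lost without wildtype 2, wildtype 3 or mutant 1, and Ctsa was also called lower. Ctsb was at 161 ± 32.6 and 132 ± 39.3 and did not pass the test (limma adjusted p = 0.385). The fall of Ctss came with the lower phagocyte marker sums given above, whose part was not tested. Without wildtype 2, wildtype 3 or mutant 1 the count of lower cathepsins was 2, and without wildtype 2 that of higher ones was 1.

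Within the family as a whole, Serpine2 held a larger part in mutant libraries. The described 7 held 67.4 to 69.7% of the summed serpin FPKM in wildtype and 69.8 to 78.1% in mutant libraries. The sum itself was 248 to 288 in wildtype and 409 to 487 in mutant libraries. Serpine2 made up 7.16 to 7.35% of it in wildtype and 18.9 to 27.5% in mutant libraries, while Serpinf1 made up 5.58 to 7.88% and 1.63 to 2.04%. By level in wildtype the order was Serpinh1, Serpinb6a, Serpine2, Serpinf1, Serpinb9, Serpinb8 and Serpina3n. The libraries of Serpine2 and Serpinf1 overlapped, as did those of Serpinf1 and Serpinb9, and the other neighbours in that order did not. In mutant libraries Serpinh1 and Serpine2 led together, at means of 106 and 105 with overlapping libraries, and Serpine2 was the higher of the pair in 3 of 4 libraries. Serpinb6a and Serpinb9 followed without overlap. Serpinf1 overlapped with Serpina3n and Serpina3n with Serpinb8.

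**Figure D4:**
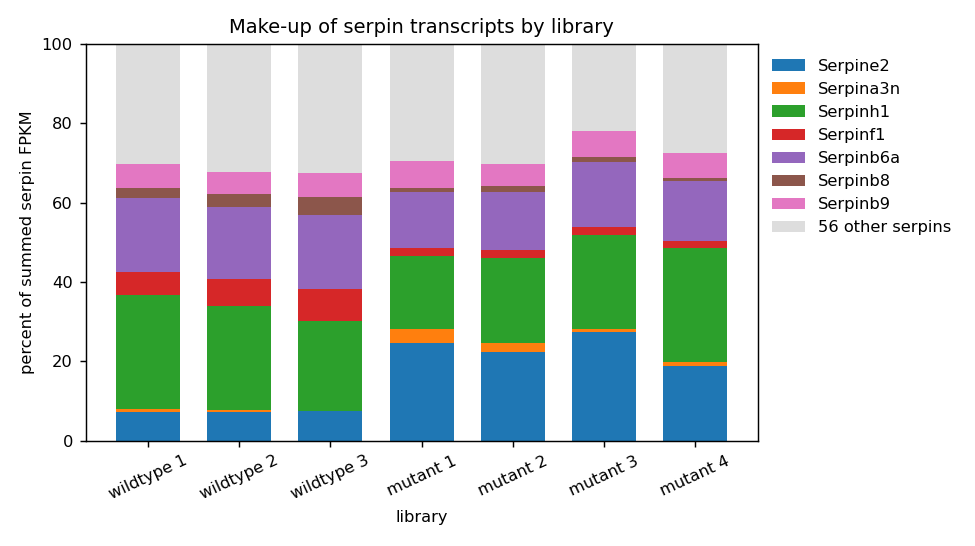
Percent of the summed FPKM of 63 serpins held by each described serpin (colours) and by the 56 others (grey) in each library. The Serpine2 part at the base of the bars is 7.16 to 7.35% in the 3 wildtype libraries and 18.9 to 27.5% in the 4 mutant libraries.

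Of the 56 other serpins 13 were tested, 33 were detected below a mean FPKM of 1, and 10 were listed at 0 in every library. Of the 13, 3 rose, Serpina10, Serpinb1a and Serpinb6b, and 1 fell, Serpina3g, where 8.76% of all genes rose and 7.34% fell. Serpina10, an inhibitor of activated factor X, was at 1.75, 1.30 and 0.683 in wildtype and 5.16, 3.00, 3.10 and 3.90 in mutant libraries (log2 difference 1.10, standard error 0.208, limma adjusted p = 0.0125). Serping1, the C1 inhibitor of complement, was at 13.5 ± 3.60 (SD, n = 3) and 20.7 ± 5.09 (SD, n = 4) and stayed uncalled (limma adjusted p = 0.127). Serpini1, neuroserpin, stood at 4.63 ± 0.355 and 4.39 ± 0.263 and was not called either (limma adjusted p = 0.645). The median log2 difference of the 13 was 0.20.

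The sequences upstream of the start sites differed in kind between members, and 3 are shown, that of Serpine2 for its GC boxes and those of Serpinb9 and Serpinb6a for their interferon-type matches. Promoter windows of 300 bases, from 250 before the RefSeq start (GRCm38.p6), were found for all 7 genes and searched on both strands for 8 motifs. The window of Serpine2 was 77.7% G or C, more than 97.9% of the 32851 windows of that length, and held 6 matches to GGGCGG, the GC box, with some overlapping each other. That motif occurs in 35.7% of all windows, and matched 3 times in the first Serpinb6a window and once each in Serpinh1 and Serpinb9. The interferon-type element, GAAA repeated after any pair of bases, was found in 3.44% of windows and matched once in Serpinb9 and once in the first of 2 windows of Serpinb6a. There it overlaps a match to TTCNNNGAA, the STAT-type palindrome, which 8.3% of windows hold. The hypoxia-type core ACGTG, in 19.6% of windows, matched once each in Serpinh1 and Serpinf1, one higher and one lower in mutant means, and not in Serpine2, and GCGTG, in 32.4%, only in Serpinb6a. The windows of Serpina3n and Serpinb8 held none of the 8 motifs, which also included GAANNTTC (7.86% of windows), CCAAT (37.4%, with 3 matches in Serpinf1) and TATAAA (13.6%). A match is a description of letters, not of a site in use. Each line gives 150 bases, from -182 to -33 relative to the RefSeq start, 5′ to 3′ on the strand of the gene, with only the matches each was chosen for in capitals. The Serpine2 sequence is chr1:79858698-79858847 on the minus strand, that of Serpinb9 chr13:33004359-33004508 on the plus strand, and that of Serpinb6a chr13:34002827-34002976 on the minus strand. In Serpine2 the capitals mark GGGCGG (4 matches in this stretch), in Serpinb9 the reverse complement of the GAAA repeat, and in Serpinb6a the same overlapping TTCNNNGAA, while a GGGCGG match on the other strand is left in lower case there.
Serpine2: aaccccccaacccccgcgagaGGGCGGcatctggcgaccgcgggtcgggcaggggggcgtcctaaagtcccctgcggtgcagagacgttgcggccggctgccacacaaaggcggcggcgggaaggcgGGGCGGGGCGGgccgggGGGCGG
Serpinb9: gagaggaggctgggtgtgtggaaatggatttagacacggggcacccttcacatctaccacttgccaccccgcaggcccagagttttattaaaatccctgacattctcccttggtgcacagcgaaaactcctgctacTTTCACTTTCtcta
Serpinb6a: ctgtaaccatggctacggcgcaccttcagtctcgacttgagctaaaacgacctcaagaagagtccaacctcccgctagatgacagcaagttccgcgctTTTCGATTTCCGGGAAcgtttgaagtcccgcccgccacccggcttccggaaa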

How the data were processed

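RNA was sequenced from 4 mutant and 3 wildtype libraries, grouped by sample title. Poly(A) RNA was captured on oligo(dT) beads for stranded libraries read from both ends, per the labels' protocols. The build mm10 and the tools RSEM 1.2.28, Bowtie2 2.3.4.1 and Trimmomatic 0.39 are listed in the submitters' processing notes, which give neither role nor order. The authors deposited FPKM values, per the file headers. The annotation, the use of strand and any scaling between libraries are not stated in the sources used.

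Of 27014 entries, 429 without a name were left out (18.35 to 29.26% of a library's FPKM) and 27 repeated symbols summed. FPKM holds no read totals. Steps among values under 0.3 placed depths at 0.71 to 0.892 of wildtype 1, and each library held 13222 to 13337 genes at an FPKM of 1 or more.

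The 13420 genes whose mean FPKM reached 1 were fitted by limma 3.58.1 (R 4.3.3) to log2(FPKM + 1) values (trend, two-sided, Benjamini-Hochberg over all of them), after a check on simulated data. Differences on this scale understate those of low genes. The adjusted p threshold was 0.05. The fit ran over the whole table, without the replicate number as a block.

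The members and lists were chosen with earlier results of these data known. Named were the 7 serpins, the 5 genes most like Serpine2, and from each list up to 6 called genes by p and the 3 of highest level. Some genes that the rule names are not reported here. Lrp1, Serpina1a, Serpina3f, Serpina3h, Serpinf2, Serpini1, Ctsa, Ctsg, Elane, F2, Plg, F11, Umod, Aqp2 and Aqp3 fall outside the rule and were chosen after their values were seen. The same holds for the markers Kap, Aqp1, Cd74, H2-Aa, H2-Ab1, Csf1r, Mrc1, Emr1 and C1qa.

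Alternatives were a pseudocount of 0.1, no filter, a mean FPKM of at least 5, the same total, median-of-ratios scaling, no trend, a replicate block, and leaving out each library. Promoters are from RefSeq (GRCm38.p6), and gene positions from GENCODE M21 (mm10), counted from 1.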

Additional observations from a re-analysis of the deposited data

Results flagged for a closer look

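In each of 52 genes described above, the 4 mutant libraries were searched for a library whose gap to its nearest neighbour exceeded Dixon's critical value as a share of the group's range, which chance gives in about 1 of 20 groups. This held for 7 genes. For Serpinb8 mutant 2 was highest, at an FPKM of 6.63 against 4.66 in the next library, a gap of 0.909 of the range. Ctss was highest in mutant 2 too, at 303 against 155 (0.905). Plat was highest in mutant 1, at 161 against 102 (0.916). Ctse was highest in mutant 4, at 3.71 against 1.05 (0.939). In mutant 3 Pcsk7 was highest, at 15.2 against 13.9 (0.884), and so were the genes 4930583H14Rik, at 6.69 against 2.90 (0.914), and Sprr2f, at 7.41 against 3.06 (0.841). Serpine2, Serpina3n, Serpinh1, Serpinf1, Serpinb6a and Serpinb9 had no such library.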

How the results depend on the processing

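The log2 difference of each of the 7 serpins kept its sign under all 14 alternatives. It ranged from 2.31 to 2.42 for Serpine2, 1.60 to 2.61 for Serpina3n, 0.42 to 0.70 for Serpinh1, -1.07 to -0.94 for Serpinf1, 0.39 to 0.49 for Serpinb6a, -0.88 to -0.64 for Serpinb8 and 0.82 to 0.92 for Serpinb9. Over all genes, the count of higher genes, 1176, became 576 after rescaling to the same total. With the replicate block it became 261, and that of lower genes went from 985 to 423. Same-numbered libraries did not deviate together (correlations over genes of -0.0612, 0.0261 and -0.281), so the numbers give no pairing. The block also left 1 cathepsin higher, 1 lower, 0 heat shock genes higher and 2 lower, and 0 genes of the Serpine2 protease list lower. Of the named genes, Bag3, Ctsh, Ctsl, Ctss, Ctsz, F2rl3, P4hb, Plau, Serpinb1a and Serpinb6b were not called with the block, and Hspa1a was. Genes of the Serpine2 protease list also numbered 0 lower with a pseudocount of 0.1, no filter, a mean FPKM of at least 5 or the same total. Heat shock genes called lower were 2 under either scaling, with a pseudocount of 0.1 or with a mean FPKM of at least 5, and 0 with no filter. Those higher were 0 with median-of-ratios scaling, and other serpins called lower were 2 with no filter. The cause of these shifts was not tested.

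Leaving out 1 library gave 324 to 1205 higher and 521 to 1085 lower genes in all, with the fewest without wildtype 2. It gave 2 to 4 other serpins higher and 1 lower. The Serpine2 protease list had 0 to 1 genes higher and 0 to 1 lower, and the surface list 1 to 4 higher and 1 to 3 lower. Cathepsins numbered 1 to 3 higher and 2 to 6 lower, heat shock genes 0 to 1 higher and 0 to 2 lower, leukocyte proteases 0 to 1 lower and collagen genes 8 to 9 higher. Of 45 named genes outside the 7, 18 changed their call in some setting. FPKM without read totals limits what can be said of transcripts near 0.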
